A study of Mus musculus with 4 samples.

Results

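MHC class II antigen presentation was described through 7 mouse genes, taken by symbol: Cd74, H2-Aa, H2-Ab1, H2-Eb1, H2-DMa, H2-DMb1 and Ciita. All 7 were among the 45773 genes of the 4 expression tables. A gene averaging 1 TPM or more across the 4 libraries is called measured, which held for 12570 genes in all and for 6 of the 7. Ciita averaged 0.749 TPM and is given by its values. TPM, a level per unit of transcript length, is scaled to an equal total in every library.

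The libraries were made by SMART-seq, which amplifies full-length cDNA from little RNA, from CD8 T cells isolated from tumours, with 1 library for each of 4 groups. In the first experiment, PmelI CD8 T-cells, whose transgenic receptor recognises the melanocyte protein gp100, received Klf4, a zinc finger transcription factor, or the MigRI retroviral vector alone. They were injected into Rag2 KO mice on day 7 of growth of the colon carcinoma MC38-gp100, and the GFP+ cells in the tumour were collected on day 15. In the second, PD1+ CD8+ TILs (tumour-infiltrating lymphocytes) were collected on day 14 from MC38 tumours in Klf4 cKO mice and in control (WT) mice. Rag2 KO hosts lack T and B cells of their own but keep macrophages, dendritic cells and stroma. The labels name neither the Cre nor the deleted part of Klf4, nor the mouse strain, the age or the number of animals behind a library. With 1 library a group there is no replicate check, no spread and no test, and every difference is between 2 libraries.

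Class II molecules present peptides from endosomes to CD4 T cells and are made chiefly by dendritic cells, macrophages and B cells. An alpha and a beta chain pair in the endoplasmic reticulum with the invariant chain Cd74, which is then cut by lysosomal proteases, and the H2-DM heterodimer exchanges its remnant for peptide. The coactivator Ciita, induced by interferon gamma in many cells, is the master switch of these genes. Mouse T cells, unlike activated human T cells, are generally held to make little class II of their own.

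Levels over all genes differed between the paired libraries. The median difference of log2(TPM + 1) over the measured genes was 0.79 for Klf4 over MigRI and 0.74 for Klf4 cKO over control, and relative differences below are differences minus these medians. A gene was called higher or lower when its relative difference reached 1 log2, that is 2-fold. Genes at 1 TPM or more numbered 13170 in Klf4, 11011 in MigRI, 11937 in Klf4 cKO and 10542 in control. Klf4 itself was at 26.05 TPM in the Klf4 library and 8.69 TPM in MigRI, and at 9.28 TPM in Klf4 cKO and 7.52 TPM in control, so its level does not check the cKO label. The summed level of 12 T cell markers was 5850 TPM in Klf4 and 24684 TPM in MigRI, and 18669.5 TPM in Klf4 cKO and 8008 TPM in control, and Cd4 was at most 0.813 TPM in any library.

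Transcripts of all 7 members were found in all 4 CD8 T cell libraries. Every member was lowest in control, and each but Ciita was highest in the Klf4 library. Cd74, the invariant chain (mm10 chromosome 18, 60803848 to 60812652, plus strand), was at 2251 TPM in Klf4 and 711 TPM in MigRI, and at 548 TPM in Klf4 cKO and 154 TPM in control. It was highest in the Klf4 library, where it was the 40th gene by TPM, and lowest in control, where it was the 738th. H2-Ab1, the beta chain of I-A, was at 1424 TPM in Klf4 and 549 TPM in MigRI, and at 419 TPM in Klf4 cKO and 103 TPM in control. H2-Aa, the alpha chain of I-A, was at 625 TPM in Klf4 and 176 TPM in MigRI, and at 314 TPM in Klf4 cKO and 54.2 TPM in control. The Klf4 library was highest and control lowest for both I-A chains, but H2-Aa was higher in Klf4 cKO than in MigRI, where Cd74 and H2-Ab1 had the opposite order.

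H2-Eb1, the beta chain of I-E, was at 321 TPM in Klf4 and 64.9 TPM in MigRI, and at 185 TPM in Klf4 cKO and 27.7 TPM in control. Its alpha chain partner, carried in the tables as H2-Ea-ps, was listed at 0 in all 4 libraries, and so was H2-Eb2. In mice of the H-2b haplotype, such as C57BL/6, from which MC38 is derived, the I-E alpha gene carries a deletion and no I-E reaches the surface.

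The peptide exchange factor H2-DM was lower than the classical chains in every library. Its alpha chain H2-DMa was at 135 TPM in Klf4 and 27.8 TPM in MigRI, and at 24.3 TPM in Klf4 cKO and 8.39 TPM in control. Its beta chain H2-DMb1 was at 273 TPM in Klf4 and 53.0 TPM in MigRI, and at 41.3 TPM in Klf4 cKO and 11.7 TPM in control. Both chains were highest in Klf4 and lowest in control, with MigRI above Klf4 cKO. Highest over lowest of the 4 libraries, the level spanned 14.6-fold for Cd74, 11.5-fold for H2-Aa, 13.9-fold for H2-Ab1, 11.6-fold for H2-Eb1, 16.1-fold for H2-DMa and 23.4-fold for H2-DMb1.

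Ciita (mm10 chromosome 16, 10480059 to 10528418, plus strand) was far below the genes it controls in level. It was at 0.684 TPM in Klf4 and 0.797 TPM in MigRI, and at 1.12 TPM in Klf4 cKO and 0.391 TPM in control, a span of 2.87-fold. The Klf4 library, highest for every other member, was the third of 4 for Ciita, and control was the lowest, as for the other members. No direction is drawn from levels this low without a depth.

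**Figure D1:**
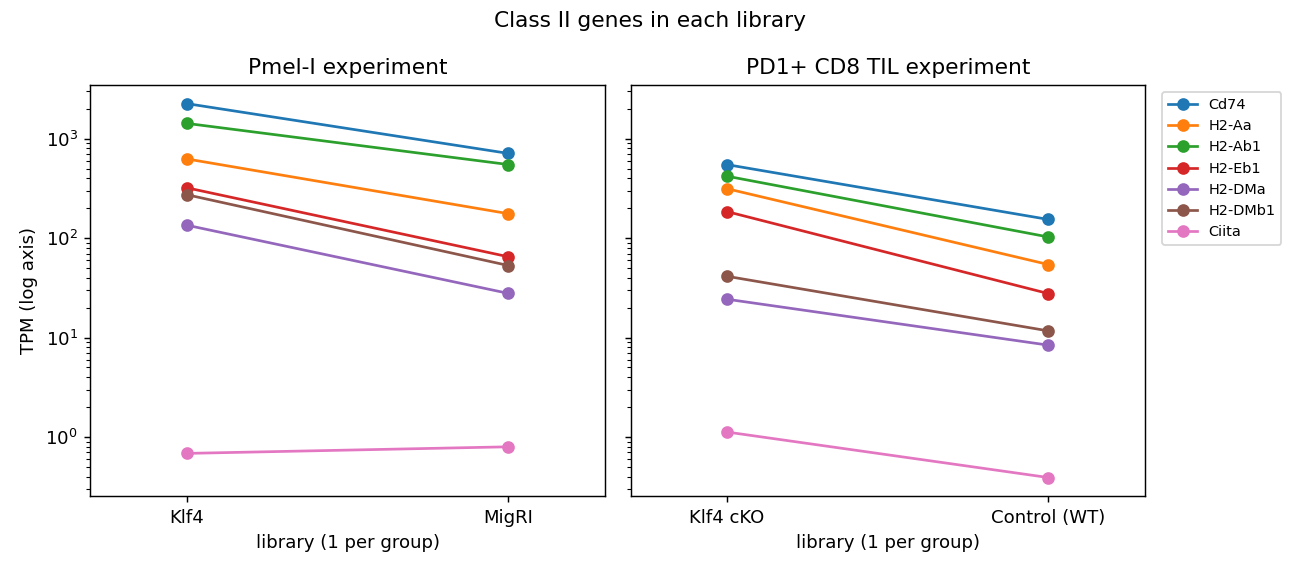
Level of each of the 7 class II genes (TPM, log axis) in the 1 library of each group, with lines joining the libraries of an experiment. Cd74 is the highest member in every library (2251, 711, 548 and 154 TPM from left to right), and Ciita lies between 0.391 and 1.12 TPM.

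The classical and H2-DM genes lie together in the class II region of chromosome 17 (mm10, gene spans from GENCODE vM21): H2-DMa at 34119541 to 34139101 on the plus strand, H2-DMb1 at 34153072 to 34160230 on the plus strand, H2-Ab1 at 34257689 to 34269419 on the plus strand, H2-Aa at 34282744 to 34287823 on the minus strand and H2-Eb1 at 34305867 to 34316674 on the plus strand. All are protein-coding. Their promoters are known for an X box, bound by the RFX complex, followed by a Y box, an inverted CCAAT motif bound by NF-Y, to which Ciita is recruited. RefSeq promoter windows (GRCm38.p6, 250 bases before to 50 bases after the start) were found for 4 of the 7 members. The windows below are printed 5′ to 3′ on the strand of the gene. They show both boxes in 3 members and the Y box alone in 2 other class II genes. Capitals mark CTNGNAAC (X box letters) and TGATTGG (Y box letters), which do not overlap. The windows are chr17:34287774-34288073 on the minus strand for H2-Aa, and, on the plus strand, chr17:34305617-34305916 for H2-Eb1, chr17:34152941-34153240 for H2-DMb1, chr17:34144999-34145298 for H2-DMb2 and chr17:34092129-34092428 for H2-Oa.
H2-Aa: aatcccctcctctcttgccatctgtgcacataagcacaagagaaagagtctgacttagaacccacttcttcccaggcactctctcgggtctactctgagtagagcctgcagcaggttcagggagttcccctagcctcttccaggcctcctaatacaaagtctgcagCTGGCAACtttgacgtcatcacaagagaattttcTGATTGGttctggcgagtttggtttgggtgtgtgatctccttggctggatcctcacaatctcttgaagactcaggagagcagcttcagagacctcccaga
H2-Eb1: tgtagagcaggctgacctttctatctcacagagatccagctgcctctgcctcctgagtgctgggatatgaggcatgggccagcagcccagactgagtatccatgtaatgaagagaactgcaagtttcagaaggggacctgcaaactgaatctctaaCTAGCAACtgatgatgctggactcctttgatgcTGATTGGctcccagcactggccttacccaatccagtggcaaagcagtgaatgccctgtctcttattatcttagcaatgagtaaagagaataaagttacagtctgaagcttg
H2-DMb1: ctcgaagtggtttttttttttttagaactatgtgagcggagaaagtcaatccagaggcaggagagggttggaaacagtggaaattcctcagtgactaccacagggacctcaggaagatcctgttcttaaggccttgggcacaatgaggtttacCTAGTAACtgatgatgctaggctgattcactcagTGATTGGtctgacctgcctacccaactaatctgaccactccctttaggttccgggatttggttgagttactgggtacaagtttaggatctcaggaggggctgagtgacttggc
H2-DMb2: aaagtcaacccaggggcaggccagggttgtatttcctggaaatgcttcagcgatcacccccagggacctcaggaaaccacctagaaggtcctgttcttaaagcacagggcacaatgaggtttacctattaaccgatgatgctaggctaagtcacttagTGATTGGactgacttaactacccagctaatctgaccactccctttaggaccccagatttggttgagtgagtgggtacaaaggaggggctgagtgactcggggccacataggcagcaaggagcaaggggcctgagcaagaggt
H2-Oa: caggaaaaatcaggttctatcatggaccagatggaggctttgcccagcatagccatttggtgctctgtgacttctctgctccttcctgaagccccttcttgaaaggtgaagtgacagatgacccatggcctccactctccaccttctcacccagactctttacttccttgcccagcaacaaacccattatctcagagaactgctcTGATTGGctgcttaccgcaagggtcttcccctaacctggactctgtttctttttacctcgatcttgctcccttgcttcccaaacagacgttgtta

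Both motifs were searched on both strands. H2-Aa, H2-Eb1 and H2-DMb1 held the X box letters followed by the Y box letters on the strand of the gene, 26, 25 and 26 bases apart. With the first transcribed base as +1, the X box letters began at -84 in H2-Aa, -94 in H2-Eb1 and -97 in H2-DMb1. Of the other class II genes, H2-Ob, low or at 0 here, also held the X box letters followed by the Y box letters, 23 bases apart, and H2-Eb2, at 0 here, held both with the Y box letters first. The windows of H2-DMb2 and H2-Oa held the Y box letters alone, and neither window of H2-DMa held either motif. Both H2-DMa windows, chr17:34122582-34122881 and chr17:34125268-34125567, lie inside its gene span, and the first overlaps Brd2 on the opposite strand. The rest of H2-DMa was not searched, so the absence holds for these windows only. Over all 32851 promoter windows, 13.2% held the X box letters, 7.82% the Y box letters, and 31 windows (0.0944%) both on 1 strand in this order within 40 bases. The X box letters were chosen after reading class II windows, so these matches describe the sequences and count for nothing more.

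In the comparison of Klf4-transduced with vector cells, 6 of 6 measured members were higher in the Klf4 library, 4 of 6 were called higher (background 21.4% of the measured genes) and 0 lower (background 23.6%). The members had a median relative log2 difference of 1.24, where the median of all measured genes is 0 by construction. As deposited, 6 of 6 were at least 2-fold higher (background 43.7%), with a median log2 difference of 2.03, against 0.79 over all measured genes. The H2-DM chains and H2-Eb1 led, with relative log2 differences of 1.55 for H2-DMb1, 1.49 for H2-Eb1 and 1.44 for H2-DMa. H2-Aa followed at 1.03, just past 2-fold. Cd74 and H2-Ab1, the most abundant members, were at 0.87 and 0.58, short of 2-fold. Ciita had a relative log2 difference of -0.89 and a deposited one of -0.09, so the subtracted median of 0.79 made up most of the former.

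In the comparison of Klf4 cKO with control PD1+ cells, 6 of 6 measured members were higher in Klf4 cKO and 5 of 6 were called higher (background 12.4%) and 0 lower (background 16.2%), with a median of 1.19. As deposited, 6 of 6 were at least 2-fold higher (background 38.4%), with a median log2 difference of 1.92, against 0.74 over all measured genes. Here the classical chains led, with relative log2 differences of 1.96 for H2-Eb1, 1.77 for H2-Aa, 1.28 for H2-Ab1 and 1.09 for Cd74. H2-Eb1 had the 129th and H2-Aa the 191st highest difference of the 12570 measured genes. H2-DMb1, at 1.00, lay on the threshold, and H2-DMa was at 0.69. Ciita had a relative log2 difference of -0.13 and a deposited one of 0.61. The count depended on the scale: it was 2 of 6, H2-Aa and H2-Eb1, with a pseudocount of 0.1 or with the median taken over genes of at least 5 or 10 TPM. Against the T cell receptor constant genes Trac, Trbc1 and Trbc2, which were themselves higher in Klf4 cKO, it was 0 of 6, and H2-DMa (-0.33 log2) and H2-DMb1 (-0.02 log2) turned sign. Against the same genes, which were lower in the Klf4 library, the member median for Klf4 over MigRI was 4.04 log2.

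The mix of class II transcripts was compared within each library, where scaling has no part. The ratio of H2-Ab1 to Cd74 was 0.633 in Klf4 and 0.773 in MigRI, and 0.765 in Klf4 cKO and 0.666 in control. It thus spanned 1.22-fold while the level of Cd74 spanned 14.6-fold and that of H2-Ab1 13.9-fold. H2-DMb1 over Cd74 was 0.121 in Klf4 and 0.0746 in MigRI, and 0.0754 in Klf4 cKO and 0.0758 in control, so 3 libraries lay within a narrow band and the Klf4 library above it. H2-DMa over Cd74 was 0.0599 in Klf4 and 0.0391 in MigRI, and 0.0443 in Klf4 cKO and 0.0545 in control, a span of 1.53-fold.

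The chains H2-Aa and H2-Eb1 kept less to Cd74. H2-Aa over Cd74 was 0.278 in Klf4 and 0.248 in MigRI, and 0.573 in Klf4 cKO and 0.352 in control, a span of 2.31-fold. H2-Eb1 over Cd74 was 0.142 in Klf4 and 0.0914 in MigRI, and 0.337 in Klf4 cKO and 0.180 in control, a span of 3.69-fold. Both ratios were highest in Klf4 cKO and lowest in MigRI. H2-Eb1 over H2-Aa, 0.513 in Klf4, 0.369 in MigRI, 0.588 in Klf4 cKO and 0.511 in control, spanned 1.60-fold, so these chains were closer to each other than H2-Eb1 was to Cd74. The alpha and beta chains of I-A were unequal, with H2-Ab1 over H2-Aa at 2.28 in Klf4 and 3.12 in MigRI, and 1.34 in Klf4 cKO and 1.89 in control. Of the summed TPM of Cd74, H2-Aa, H2-Ab1 and H2-Eb1, Cd74 took 48.7% in Klf4 and 47.4% in MigRI, and 37.4% in Klf4 cKO and 45.5% in control. Ciita over Cd74 spanned 8.35-fold and was lowest in Klf4. Whether the transcripts of a library came from 1 kind of cell was not tested.

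**Figure D2:**
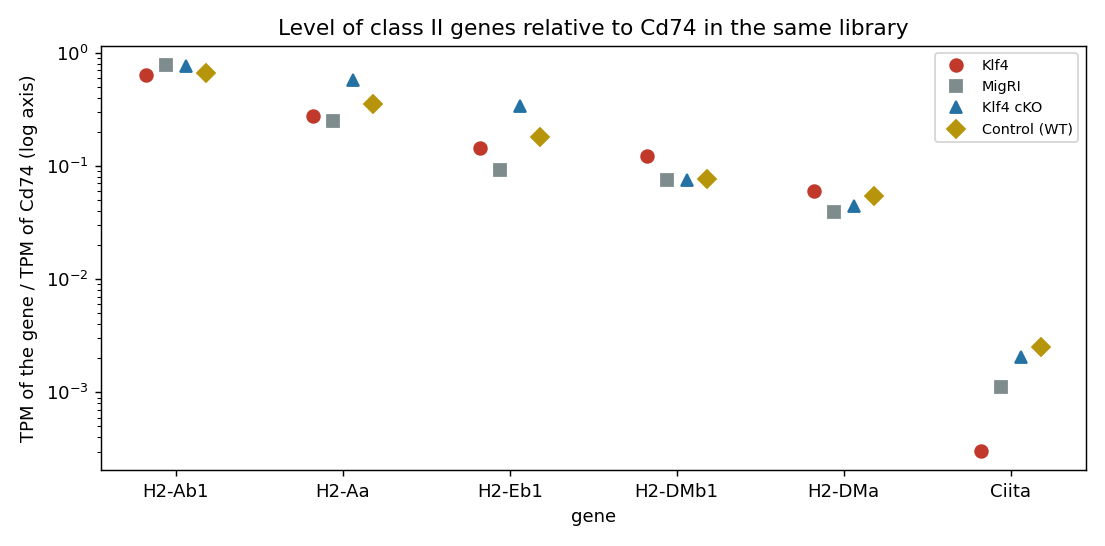
TPM of each member over TPM of Cd74 in the same library (log axis), with 1 point per library. H2-Ab1 spans 1.22-fold over the 4 libraries, H2-DMa 1.53-fold, H2-DMb1 1.63-fold, H2-Aa 2.31-fold, H2-Eb1 3.69-fold and Ciita 8.35-fold.

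H2-DMb1 has a close copy, H2-DMb2, which also encodes a DM beta chain. Their longest coding transcripts were identical at 86.0% of 1314 aligned bases and their promoter windows at 81.4% of 258, and 27.2% of the 50-base windows of the H2-DMb1 transcript also occur in H2-DMb2, so the split of reads between these genes is uncertain. No 50-base window of the other 6 members occurred in a transcript of another gene. H2-DMb2 was at 43.1 TPM in Klf4 and 11.7 TPM in MigRI, and at 7.74 TPM in Klf4 cKO and 3.02 TPM in control, with the libraries in the order seen for H2-DMb1. H2-DMb2 over H2-DMb1 was 0.158 in Klf4 and 0.221 in MigRI, and 0.187 in Klf4 cKO and 0.259 in control.

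H2-Oa, the alpha chain of the H2-O heterodimer that restrains H2-DM, departed from the members. It was at 9.33 TPM in Klf4 and 33.0 TPM in MigRI, and at 19.2 TPM in Klf4 cKO and 7.61 TPM in control. MigRI was thus the highest library, and the relative log2 differences were -2.51 for Klf4 over MigRI and 0.49 for Klf4 cKO over control; against the receptor constant genes both turned sign, to 0.30 and -0.53. H2-Ob, its beta chain, was at 1.82 TPM in Klf4 and 0.407 TPM in MigRI, and at 0.351 TPM in Klf4 cKO and listed at 0 in control. H2-DMa overlaps Brd2, H2-Eb1 overlaps Gm20513, H2-Oa overlaps BC051537 and Ciita overlaps Dexi, each on the opposite strand, and reads from the overlaps cannot be told apart because the kit keeps no strand. Cd74 overlaps Mir5107 and H2-DMa overlaps CR974462.3 on the same strand, and H2-DMa overlaps CR974462.4 and Gm20493 on the opposite one. Dexi, at 50.6 TPM in Klf4, 46.1 TPM in MigRI, 26.03 TPM in Klf4 cKO and 17.5 TPM in control, was far above Ciita.

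Between H2-DMb1 and H2-Ob lie 4 genes of class I presentation, and Brd2, a bromodomain gene, lies beside H2-DMa, so that neighbours of the members could be set beside them. The peptide transporter subunits Tap1 and Tap2 had relative log2 differences of 1.73 and 1.25 for Klf4 over MigRI and of 0.54 and 0.15 for Klf4 cKO over control. The immunoproteasome subunits Psmb8 and Psmb9 had -1.21 and -1.25 for Klf4 over MigRI and 1.06 each for Klf4 cKO over control. Brd2 had 1.09 and -0.48. Of the 5 neighbours, 3 were thus called higher (background 21.4%) and 2 lower (23.6%) in Klf4, and 2 higher (background 12.4%) and 0 lower (16.2%) in Klf4 cKO. The 5 members of the region lay above the median gene in both comparisons.

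**Figure D3:**
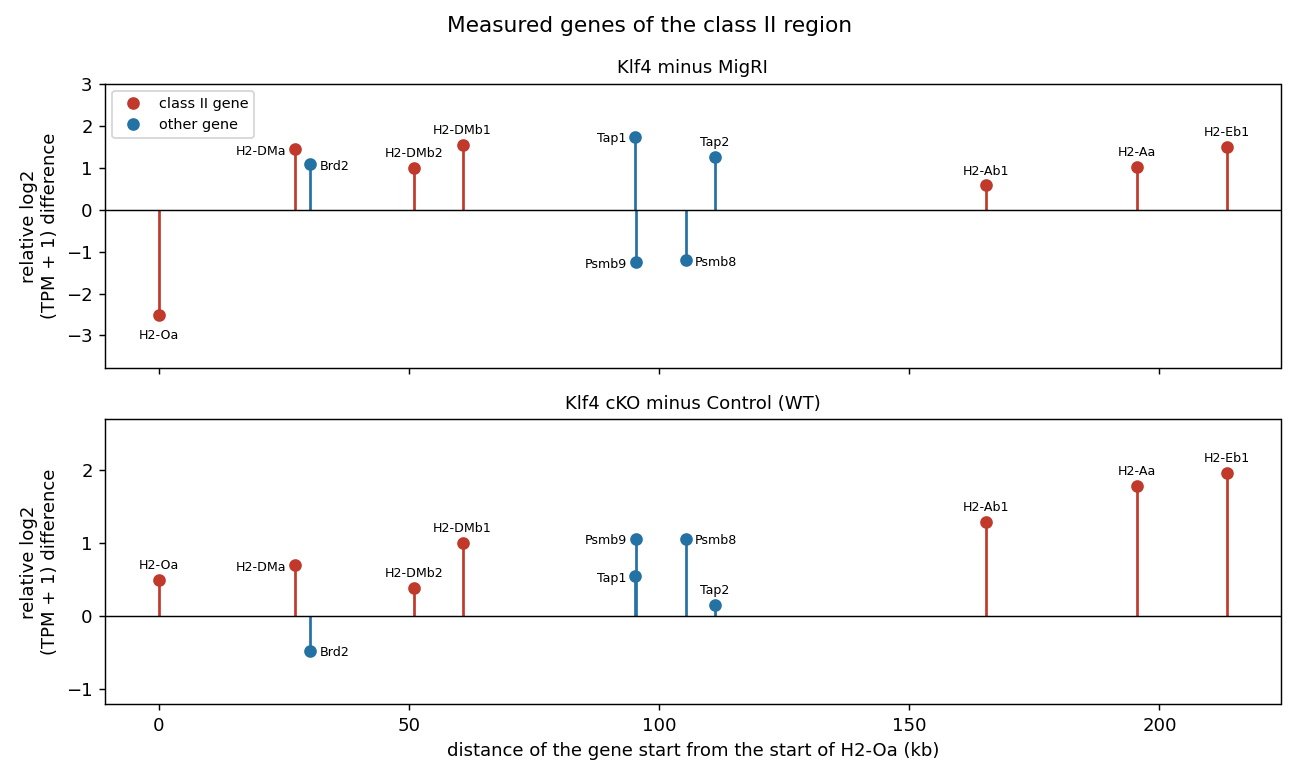
Relative log2(TPM + 1) difference of the measured genes of the class II region against the distance of their start from that of H2-Oa (kb), for Klf4 minus MigRI (top) and Klf4 cKO minus control (bottom), with class II genes in red and others in blue. In the top panel H2-Oa (-2.51), Psmb8 (-1.21) and Psmb9 (-1.25) lie below 0 and all other genes above it, and in the bottom panel Brd2 (-0.48) alone lies below 0.

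Genes that prepare peptides for class II were mostly called higher in both comparisons. Of 12 measured antigen processing genes, 10 were called higher (background 21.4%) and 0 lower (23.6%) in Klf4, and 7 higher (background 12.4%) and 0 lower (16.2%) in Klf4 cKO, with medians of 1.60 and 1.07 (0.05 in Klf4 cKO against the receptor constant genes). The Klf4 cKO median lay near the threshold. It was 0.80 with a pseudocount of 0.1, and 0.76 and 0.62 with the median taken over genes of at least 5 and 10 TPM. It was 0.95 under median of ratios scaling and 0.90 under quantile normalization, and stayed above 1 under the remaining settings given at the end. Ctss, cathepsin S, which cuts the invariant chain, was at 676 TPM in Klf4 and 179 TPM in MigRI, and at 296 TPM in Klf4 cKO and 84.3 TPM in control. Ifi30, the lysosomal thiol reductase, was at 242 TPM in Klf4 and 49.8 TPM in MigRI, and at 111 TPM in Klf4 cKO and 18.8 TPM in control. Both followed the members in having Klf4 highest and control lowest, as did most genes of the list, Cst3 among them. Over the 4 libraries H2-Aa over Ctss spanned 1.65-fold and Cd74 over Ctss 2.17-fold. Lgmn, an asparagine endopeptidase, was at 114 TPM in Klf4 and 9.35 TPM in MigRI, a relative log2 difference of 2.68, and at 13.0 TPM in Klf4 cKO and 6.45 TPM in control, one of 0.17. Cst3, the cathepsin inhibitor cystatin C, was the most abundant gene of the list and lay below the median gene, with relative log2 differences of -0.63 and -0.46, at 1924 TPM in Klf4 and 1714 TPM in MigRI, and at 1297 TPM in Klf4 cKO and 1071 TPM in control.

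Relative to the median gene, genes that control class II transcription were called in both directions. Of 18 measured regulators, 4 were called higher (background 21.4%) and 4 lower (23.6%) in Klf4, with a median of -0.09, and 2 higher (background 12.4%) and 2 lower (16.2%) in Klf4 cKO, with a median of 0.14, shares near the background. As deposited, 7 were at least 2-fold higher (background 43.7%) and 0 lower (background 10.3%) in Klf4, with a median of 0.70. In Klf4 cKO, 8 were higher (background 38.4%) and 0 lower (background 6.92%), with a median of 0.88. Against the receptor constant genes the medians were 2.72 and -0.88. Irf1, an interferon-induced activator, was at 687 TPM in Klf4 and 48.0 TPM in MigRI, and at 70.9 TPM in Klf4 cKO and 15.8 TPM in control, relative log2 differences of 3.02 and 1.36. The subunits of the RFX complex differed among themselves: Rfxank was at 89.7 TPM in Klf4 and 26.1 TPM in MigRI, Rfxap at 45.3 TPM in Klf4 and 51.8 TPM in MigRI, and Rfx5 at no more than 1.06 TPM in any library. Likewise the NF-Y subunit Nfyc was at 71.5 TPM in Klf4 and 17.6 TPM in MigRI, a relative log2 difference of 1.17, and Nfyb at 24.5 TPM in Klf4 and 47.7 TPM in MigRI, one of -1.73. For Klf4 cKO over control these orders were reversed. Relative log2 differences there were -0.06 for Rfxank and 0.995 for Rfxap, and 0.08 for Nfyc and 0.61 for Nfyb. Ifngr1 and Ifngr2, the chains of the interferon gamma receptor, had relative log2 differences of -1.62 and 2.29 for Klf4 over MigRI and of 1.11 and -0.17 for Klf4 cKO over control. Spi1, which encodes the myeloid and B cell factor PU.1, was at 97.9 TPM in Klf4 and 18.5 TPM in MigRI, and at 16.9 TPM in Klf4 cKO and 6.89 TPM in control. Irf8, a more abundant regulator, was lower in Klf4 (148 TPM) than in MigRI (214 TPM), a relative log2 difference of -1.32. It was at 149 TPM in Klf4 cKO and 48.8 TPM in control, one of 0.86.

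The costimulation list of presenting cells and genes of the class I pathway had lower medians than the members. Of the 6 genes on the costimulation list, 2 were called higher and 1 lower in Klf4 and 1 higher and 0 lower in Klf4 cKO. Median relative log2 differences were 0.66 and 0.64. Those called higher in Klf4 were Cd40 (1.69) and Cd274 (1.43). Cd80 was called lower in Klf4 (-1.43) and higher in Klf4 cKO (1.10), and Cd86 was called in neither (0.47 and 0.42). Cd40 was at 30.6 TPM in Klf4 and 4.65 TPM in MigRI, and at 3.84 TPM in Klf4 cKO and 1.01 TPM in control. Cd80 was at 4.08 TPM in Klf4 and 6.88 TPM in MigRI, and at 8.18 TPM in Klf4 cKO and 1.57 TPM in control. Of 11 class I genes, 4 were called higher and 2 lower in Klf4 and 5 higher and 0 lower in Klf4 cKO, with medians of 0.24 and 0.96. For both lists the background was 21.4% higher and 23.6% lower in Klf4, and 12.4% higher and 16.2% lower in Klf4 cKO. Cd74 over B2m, the class I light chain, which T cells make in abundance, was 0.336 in Klf4 and 0.151 in MigRI, and 0.0246 in Klf4 cKO and 0.0241 in control. That ratio differed between the experiments but hardly between Klf4 cKO and control.

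**Figure D4:**
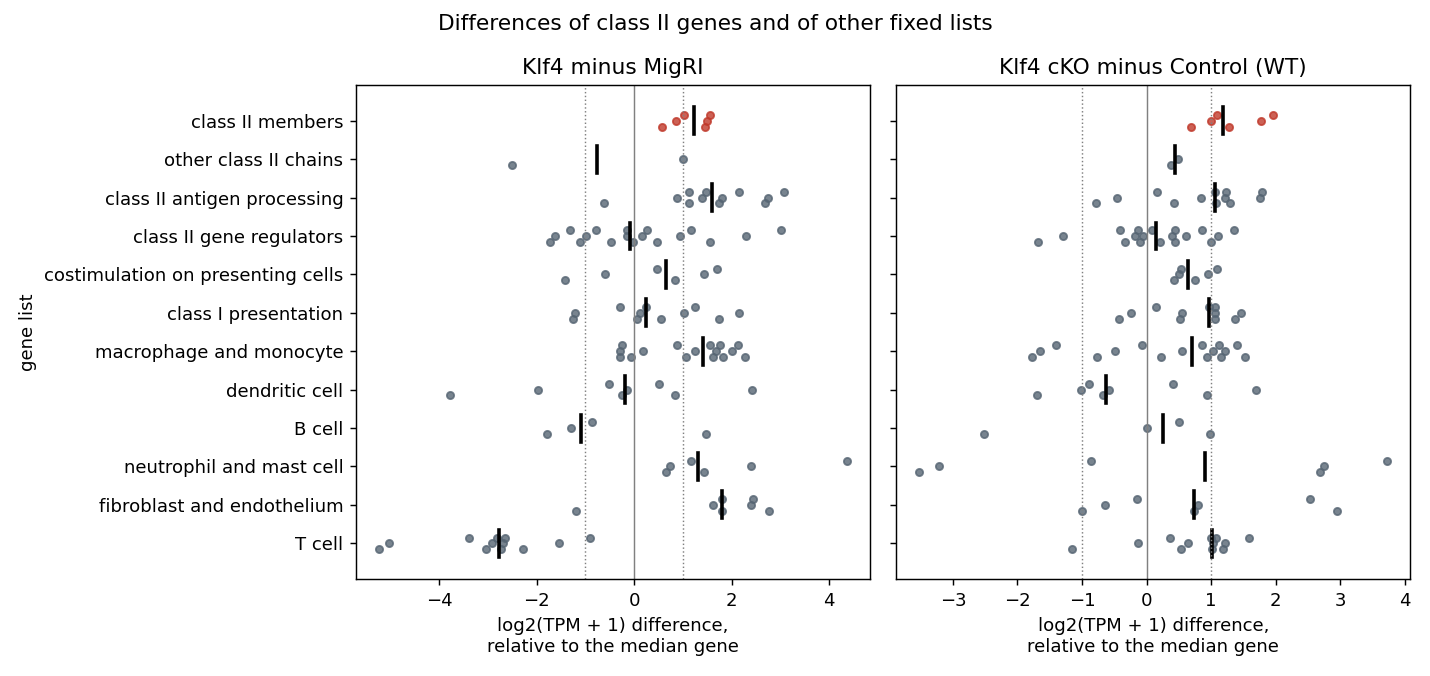
Relative log2(TPM + 1) difference of each measured gene of 12 fixed lists, with 1 point per gene, the list median as a black bar, the median gene at 0 and dotted lines at 2-fold. The class II members have medians of 1.24 (Klf4 minus MigRI) and 1.19 (Klf4 cKO minus control), and the T cell list medians of -2.77 and 1.01, which against the receptor constant genes are 0.04 and -0.01. The receptor constant genes belong to the T cell list, so these last medians near 0 follow in part from the reference.

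Markers of cells that make class II were present in all 4 libraries, unequally between cell types. In bulk samples fewer cells of a type and less RNA per cell cannot be told apart. The 17 macrophage and monocyte markers, 16 of them measured, summed to 5856 TPM in Klf4 and 1650.0 TPM in MigRI, and to 2237 TPM in Klf4 cKO and 2021 TPM in control, with 0 at 0 in any library. Of the 16, 10 were called higher (background 21.4%) and 0 lower (23.6%) in Klf4, and 6 higher (background 12.4%) and 3 lower (16.2%) in Klf4 cKO, with medians of 1.41 and 0.70 (-0.32 in Klf4 cKO against the receptor constant genes). Lyz2, lysozyme, was at 1423 TPM in Klf4 and 344 TPM in MigRI, and at 256 TPM in Klf4 cKO and 52.5 TPM in control. C1qb, a complement chain of tissue macrophages, was at 723 TPM in Klf4 and 129 TPM in MigRI, and at 243 TPM in Klf4 cKO and 64.5 TPM in control. Apoe was at 756 TPM in Klf4 and 98.8 TPM in MigRI, and at 254 TPM in Klf4 cKO and 79.1 TPM in control. The signalling adaptor Fcer1g, which NK cells and some activated T cells also make, had the opposite order in the second experiment, at 657 TPM in Klf4 and 464 TPM in MigRI, and at 641 TPM in Klf4 cKO and 1018 TPM in control. The part of macrophage RNA in the class II levels was not tested.

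Ratios of Cd74 to single markers were taken for pairs chosen after their values were seen. Cd74 over Cd68, a lysosomal glycoprotein of macrophages, was 9.31 in Klf4 and 10.8 in MigRI, and 9.51 in Klf4 cKO and 10.1 in control, a span of 1.16-fold. Cd74 over Lyz2 was 1.58 in Klf4 and 2.06 in MigRI, and 2.15 in Klf4 cKO and 2.93 in control, a span of 1.86-fold. Cd74 over C1qb was 3.11 in Klf4 and 5.52 in MigRI, and 2.26 in Klf4 cKO and 2.39 in control. Cd74 over Trac, the constant gene of the T cell receptor alpha chain, was 8.22 in Klf4 and 0.549 in MigRI, and 0.253 in Klf4 cKO and 0.277 in control, a span of 32.5-fold. Between Klf4 cKO and control, Cd74 over Trac was 0.914-fold. Over the whole lists the spans were wide: Cd74 over each of the 16 measured macrophage and monocyte markers spanned 1.16-fold (Cd68) to 26.8-fold (Aif1), with a median of 4.27-fold, and 22.6-fold for Fcer1g, the most abundant of them. Cd74 over each of the 12 T cell markers spanned 11.4-fold (Trbc2) to 673-fold (the CD3 chain Cd3d), with a median of 41.6-fold, so the ranges of both lists overlapped.

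B cell transcripts were low. Of 11 B cell markers, the inhibitory receptor Cd22, the surface protein Ms4a1 and the kinase Blk were among those listed at 0 in all 4 libraries, and the list summed to 98.4 TPM in Klf4 and 125 TPM in MigRI, and to 34.0 TPM in Klf4 cKO and 41.8 TPM in control. Most of that was immunoglobulin: Ighm was at 46.5 TPM in Klf4 and 66.7 TPM in MigRI, and at 18.1 TPM in Klf4 cKO and 4.76 TPM in control, and Igkc was at 25.4 TPM in Klf4 and 51.5 TPM in MigRI, and at 9.36 TPM in Klf4 cKO and 34.6 TPM in control. The antigen receptor chain Cd79a had another order, at 20.6 TPM in Klf4 and 3.52 TPM in MigRI, and at 3.12 TPM in Klf4 cKO and 0.734 TPM in control, and Cd79b was at no more than 3.29 TPM in any library. Of 4 measured B cell markers, 1 was called higher (background 21.4%) and 2 lower (23.6%) in Klf4, and 0 higher (background 12.4%) and 1 lower (16.2%) in Klf4 cKO. The 13 dendritic cell markers summed to 198 TPM in Klf4 and 487 TPM in MigRI, and to 147 TPM in Klf4 cKO and 50.5 TPM in control, mostly from Ccr7 and Batf3, which T cells also express. Of 8 measured, 1 was called higher and 2 lower in each comparison, with median relative log2 differences of -0.19 and -0.63. These counts were near the background, 21.4% higher and 23.6% lower in Klf4, and 12.4% higher and 16.2% lower in Klf4 cKO. Fscn1, an actin-bundling protein of mature dendritic cells, was at 30.5 TPM in Klf4 and 2.42 TPM in MigRI, and at 2.11 TPM in Klf4 cKO and 2.46 TPM in control. Xcr1, a chemokine receptor of cross-presenting dendritic cells, was at 0.565 TPM in Klf4 and 0.292 TPM in MigRI, and at 4.58 TPM in Klf4 cKO and 9.82 TPM in control. Flt3, a receptor of dendritic cells and their precursors, was at 0.703 TPM in Klf4 and listed at 0 in MigRI, and at 0.439 TPM in Klf4 cKO and listed at 0 in control. Clec9a, a marker of cross-presenting dendritic cells, was at 0.184 TPM in Klf4 and listed at 0 in the other 3 libraries.

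The summed level of stromal markers was higher in Klf4 and in Klf4 cKO, as that of class II was. The 9 fibroblast and endothelium markers summed to 1278 TPM in Klf4 and 135 TPM in MigRI, and to 246 TPM in Klf4 cKO and 30.2 TPM in control, 9.48-fold and 8.14-fold higher, where the 7 class II genes summed to 5029 TPM in Klf4 and 1583 TPM in MigRI, and to 1533 TPM in Klf4 cKO and 359 TPM in control, 3.18-fold and 4.27-fold higher. Of 7 measured stromal markers, 6 were called higher (background 21.4%) and 1 lower (23.6%) in Klf4, with a median relative log2 difference of 1.80. In Klf4 cKO, 2 were called higher (background 12.4%) and 0 lower (16.2%), with a median of 0.74 (-0.28 against the receptor constant genes). The 2 called in Klf4 cKO, Sparc and the proteoglycan Dcn, carried most of that sum: Sparc was at 186 TPM in Klf4 cKO and 18.4 TPM in control, and Dcn at 34.0 TPM in Klf4 cKO and 1.71 TPM in control. Col1a1, Pdgfrb and Pecam1 lay below the median gene there, with relative log2 differences of -0.15, -0.999 and -0.64. Cd74 over Sparc, a matrix protein of fibroblasts, was 2.74 in Klf4 and 7.96 in MigRI, and 2.96 in Klf4 cKO and 8.39 in control, so it was lower in Klf4 and in Klf4 cKO alike. The 10 neutrophil and mast cell markers summed to 134 TPM in Klf4 and 29.6 TPM in MigRI, and to 46.6 TPM in Klf4 cKO and 29.6 TPM in control, and these cell types differed in the second experiment. The neutrophil and monocyte gene S100a8 was at 50.9 TPM in Klf4 and 18.0 TPM in MigRI, and at 2.44 TPM in Klf4 cKO and 18.1 TPM in control, and its partner S100a9 at 0.732 TPM in Klf4 cKO and 10.9 TPM in control. The mast cell tryptase Tpsb2 was at 34.7 TPM in Klf4 and listed at 0 in MigRI, and at 21.1 TPM in Klf4 cKO and listed at 0 in control. Of 6 measured, 4 were called higher (background 21.4%) and 0 lower (23.6%) in Klf4, and 3 higher (background 12.4%) and 2 lower (16.2%) in Klf4 cKO. The 7 tumour epithelium markers summed to at most 9.70 TPM in any library. The part of these cells in the class II levels was not tested.

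**Figure D5:**
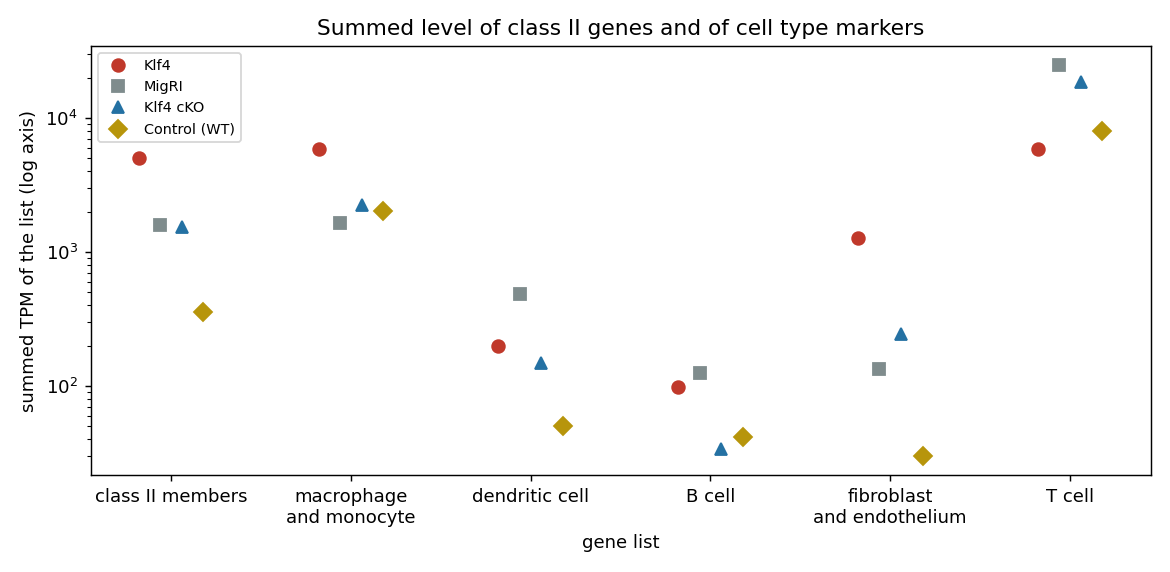
Summed TPM (log axis) of the 7 class II genes and of 5 lists of cell type markers, with 1 point per library. Class II is highest in Klf4 (5029 TPM) and lowest in control (359 TPM), the macrophage sum is highest in Klf4 (5856 TPM), and the T cell sum is lowest in Klf4 (5850 TPM).

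The profile of class II over the libraries was shared by many other genes. The summed TPM of Cd74, H2-Aa, H2-Ab1 and H2-Eb1 was 4620 in Klf4 and 1501 in MigRI, and 1467 in Klf4 cKO and 339 in control. Likeness was measured as the Euclidean distance between log2(TPM + 1) profiles over the 4 libraries, each centred on its own mean, among the 3342 genes averaging 20 TPM or more. The nearest gene was Ly6e, an interferon-induced surface protein, at a distance of 0.063, with 2559 TPM in Klf4 and 816 TPM in MigRI, and 845 TPM in Klf4 cKO and 186 TPM in control. Next came Tfg, Babam1, Tmem222, Hspd1, Hmces, Atxn10, Plrg1, Degs1 and Nxf1, at distances of 0.082 to 0.17, among them the mitochondrial chaperonin Hspd1 and the mRNA export receptor Nxf1. The members themselves ranked lower: H2-Ab1 was 33rd and Cd74 48th, although both enter the sum, H2-Aa was 416th, H2-DMa 438th, H2-DMb1 591st and H2-Eb1 1137th. With 4 libraries the profile therefore does not set class II genes apart from many others.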

How the data were processed

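The authors deposited 1 table per library, with a TPM value for each gene symbol, as the file headers state. The kit was SMART-seq v4, per the labels' protocols. The submitters' processing notes list Trimmomatic, HISAT2, StringTie, edgeR and build mm10. Which step each tool served, its version and the gene models are not stated in these sources. Depth cannot be read from TPM, so no value carries a counting error, and a value of exactly 0 can be a failed estimate.

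The tables had 45777 entries. Date-like names replaced 26 symbols in the control table: 22 could be restored, and the 4 genes sharing 2 date names were dropped from every library. Differences of log2(TPM + 1), a pseudocount of 1, were taken within an experiment, centred on the median of genes averaging 1 TPM or more, and called at 1 log2. Python 3.11.15, pandas 2.3.3 and numpy 2.4.6 were used. The calls were tested on simulated library pairs that shared a base profile, with as many genes raised as lowered. A shift of the median gene as seen here was not simulated. Named genes were taken from the members, measured genes of the class II, costimulation and class I lists, the 4 highest markers and those at 0 in every other list, and the 10 nearest profiles. Cd68, Aif1, Trac, Flt3, Clec9a, Col1a1, Pdgfrb, Pecam1, Dexi, Brd2, Klf4, Rfx5, H2-Ob and the overlapping genes were added after their values were seen. The members and the 14 lists were chosen with earlier results of these data known. A marker of the B cell list is not reported here by name.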

Additional observations from a re-analysis of the deposited data

How the results depend on the processing

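The counts, the members, H2-DMb2, H2-Oa and the medians of 11 lists were computed again under other settings: pseudocounts of 0.1 and 5; filters of 5 and 10 TPM, and none; TPM as deposited; scaling by median of ratios; quantile normalization; rescaling after removal of mitochondrial genes, ribosomal protein genes and receptor segments, or of the top 50 genes; and centring on the receptor constant genes. No paired analysis was possible because each group had 1 library, which also left no replicate to leave out. For Klf4 over MigRI, the count of members at least 2-fold higher (4) ranged from 3 to 6 and their median (1.24) from 1.03 to 4.04. Lists with a median at least 2-fold higher numbered 4. They numbered 10 against the receptor constant genes and between 3 and 6 under the remaining settings. For Klf4 cKO over control, the count (5) was 2 with a pseudocount of 0.1 and at filters of 5 and 10 TPM (medians 0.90, 0.87 and 0.73), 3 under median of ratios scaling, and 0 against the receptor constant genes (median 0.17). Lists with a median at least 2-fold higher there numbered 2 and became 1 with a pseudocount of 0.1, at filters of 5 and 10 TPM and under median of ratios scaling. They numbered 3 with a pseudocount of 5 and under quantile normalization, and 5 without a filter. They numbered 7 as deposited, 8 under either rescaling and 0 against the receptor constant genes. Against those genes 5 values of at least 2-fold turned sign: the T cell list (0.038) and the B cell list (1.72) and H2-Oa (0.30) for Klf4 over MigRI, and the T cell list (-0.010) and H2-DMb1 (-0.017) for Klf4 cKO over control. The T cell list holds the receptor constant genes, so its values near 0 follow in part from the reference. The causes were not tested. Over all measured genes, 47.5% of calls were higher for Klf4 over MigRI and 81.0% as deposited, and 43.4% for Klf4 cKO over control and 84.7% as deposited. Of the ratios, the spans of 5 members over Cd74 were computed again, under quantile normalization alone, and moved by less than 1.5 times, H2-DMa over Cd74 the most (1.53 and then 2.28). Single genes of the lists, summed levels, profile distances and the other ratios were not. The depth behind a value is unknown.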
